A study of Mus musculus with 15 samples.

Results

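Livers lacking Jnk1 were compared with livers lacking Jnk2 while NEMO was intact, using every array labelled Jnk1 KO (3 arrays) and every array labelled Jnk2 KO (3 arrays), which make up 6 of the 15 arrays of the series. The arrays were chosen by their labels alone and all measured genes entered the comparison. Each array held RNA from the whole liver of 1 C57BL/6 mouse, labelled male and aged 8 weeks. Jnk1 KO mice were global Jnk1-/- and Jnk2 KO mice were global Jnk2-/-, so the kinase was missing from every cell type of the liver and from before birth. Beside them stood 3 groups of 3 arrays each. WT mice carried floxed NEMO on both alleles (NEMO floxed/floxed) and no Jnk deletion. NEMO/Jnk1 DKO mice were global Jnk1-/-/NEMOΔhepa and NEMO/Jnk2 DKO mice global Jnk2-/-/NEMOΔhepa, obtained by crossing the hepatocyte knockout of NEMO with either constitutive Jnk line. In NEMOΔhepa the deletion is driven by Alb-cre, which acts in hepatocytes, so the other liver cells of the double knockouts keep NEMO. The labels do not say whether the single knockouts carried the floxed allele. The question answered is which transcripts set the 2 single knockouts apart, and whether they also set the 2 double knockouts apart.

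JNK1 and JNK2, encoded by Mapk8 and Mapk9, are stress-activated protein kinases that phosphorylate c-Jun and other AP-1 transcription factors once they have been activated by the MAP2 kinases MKK4 and MKK7. They share most of their substrates, and in the liver they are studied for their parts in hepatocyte death, regeneration, insulin signalling and steatosis. NEMO, encoded by Ikbkg, is the non-catalytic part of the IkB kinase complex, through which inflammatory signals activate NF-kB. The acute-phase response, which recurs in the values below, is the switch of hepatocytes to secreting serum amyloid A, fibrinogen and other plasma proteins, driven mainly by IL-6 through STAT3 and by C/EBP factors.

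Values are log2 expression levels, so that a difference of 1 is a doubling, and differences are given as Jnk1 KO less Jnk2 KO: a negative value means a lower level in Jnk1 KO. The change of this difference with NEMO is given as the difference with NEMO intact less that in the double knockouts. Differences were tested with limma in a fit to all 15 arrays, and a gene is said to be called when its p-value, adjusted by Benjamini-Hochberg over all 19938 genes, was under 0.05. Hepatocyte markers were uniformly high, with a mean level over their 14 measured genes of 12.29 to 12.54 in the 15 arrays. The array labelled Jnk1 KO replicate 1 and the array labelled Jnk2 KO replicate 3 stood apart from the other arrays labelled as NEMO-intact. The mean level of 23 stellate cell and matrix markers was 7.73 and 7.87 in them and 6.24 to 6.53 in the remaining 7 arrays with intact NEMO, while the double knockouts had 7.32 to 7.57. That of 22 macrophage and Kupffer cell markers was 7.18 and 7.08, against 5.76 to 6.35 and 6.86 to 7.35. Jnk1 KO replicate 1 also had Xist at 8.68 and a mean of 3 Y-linked genes of 2.85, as did NEMO/Jnk1 DKO replicates 1 and 2 (Xist 9.17 and 9.08), against 2.40 to 2.82 and 6.79 to 7.26 in the other 12 arrays. The main counts are therefore given as labelled (n = 3 arrays per group) and again without these 2 arrays (n = 2 arrays for Jnk1 KO and for Jnk2 KO, 13 arrays in the fit). Some single genes are given in 1 setting only, as labelled unless the passage names the setting without the 2 arrays.

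The deleted kinases marked the groups as labelled in all 6 arrays, including both that stood apart. Mapk9 read 7.6, 7.61 and 7.43 in Jnk1 KO replicates 1 to 3 and 3.28, 2.88 and 2.60 in Jnk2 KO replicates 1 to 3, with 7.41 to 7.65 in WT. The groups were far apart (difference 4.63, SE 0.16, limma adjusted p = 1.47e-09). Mapk8 read 6.06, 6.23 and 6.12 in Jnk1 KO and 6.85, 6.75 and 6.58 in Jnk2 KO, with 6.98 to 7.03 in WT. These ranges did not overlap either, but the difference was small and was not called (-0.59, SE 0.14, limma adjusted p = 0.212). The part of each gene that its probes cover is not given in the sources used here, so the remaining Mapk8 signal sets no limit on the deletion. Ikbkg read 6.75, 7.17 and 7.18 in Jnk1 KO and 7.23, 7.03 and 6.24 in Jnk2 KO. Its lowest value in each group was that of the array that stood apart, and the difference without these arrays was 0.044 (SE 0.17, limma adjusted p = 0.965). Ikbkg read 6.18 to 6.85 in NEMO/Jnk1 DKO and 6.31 to 6.48 in NEMO/Jnk2 DKO. Jnk1 KO replicate 1 lay within the first range and Jnk2 KO replicate 3 below the second. Mapk9 read 7.48 to 7.67 and 2.39 to 2.84 in these groups, near the single knockouts. The kinase values thus do not show whether NEMO was intact in the 2 arrays that stood apart, which was not tested.

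As labelled, 26 of 19938 genes were called, which is 0.13% of those tested, with 9 higher in Jnk1 KO (0.0451%) and 17 lower (0.0853%). At an unadjusted p under 0.05 there were 1395. Leaving out the 2 arrays raised the count to 119 (0.597%), with 27 higher in Jnk1 KO (0.135%) and 92 lower (0.461%). Of the 26 genes 22 were called in both settings, and the other 4 (Akr1c19, Cebpd, Fbxo36 and Mmd) as labelled only. Both groups' arrays were apart for each of the 26 genes, whereas over all genes 4.5% had every Jnk1 KO array above every Jnk2 KO array and 3.51% the reverse. The 119 were apart too, where 17.1% and 18.1% of all genes were. A group was counted as outside WT where its 3 arrays lay on the same side of the WT range. Of the 26 genes 21 had Jnk2 KO outside and not Jnk1 KO. In 3 (Cltb, Igfbp1 and Mme) Jnk1 KO was outside and not Jnk2 KO, and in 2 (Chsy3 and Rps3a1) both were. The share over all genes was not counted, so these counts are not read as a trait of the called genes. The count depended on single arrays: it was 69, 10 and 17 without Jnk1 KO replicates 1, 2 and 3, and 11, 13 and 104 without Jnk2 KO replicates 1, 2 and 3. In every one of these 6 fits 9 of the 26 genes kept their call, namely Abcb1b, Abhd1, Atp11a, BC018473, Gdpd3, Mapk9, Mme, Pik3c2g and Rps3a1. The other 17 lost it without at least 1 array, at limma adjusted p-values from 0.0516 to 0.207.

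**Figure D1:**
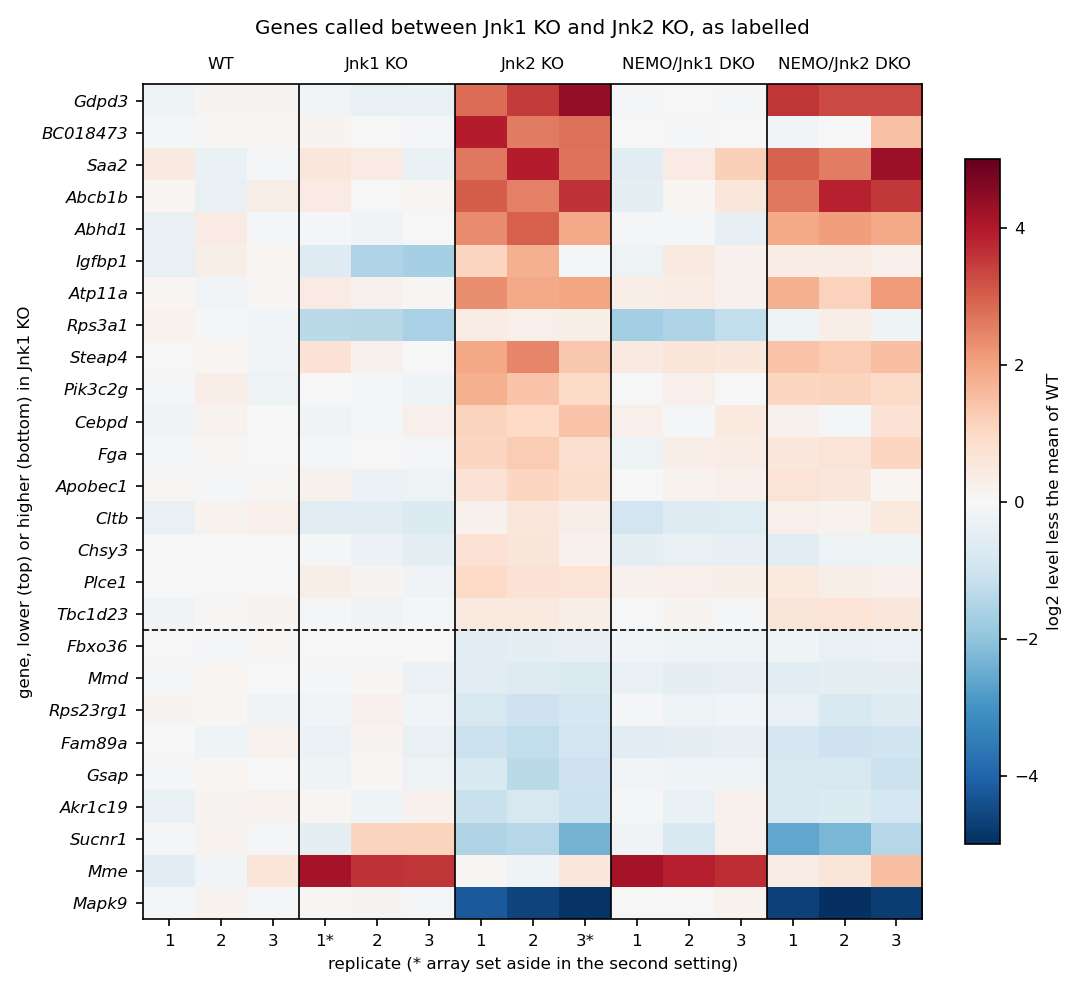
Level of the 26 genes called as labelled (rows) in each of the 15 arrays (columns), as the log2 level less the mean of the 3 WT arrays; red is higher and blue lower than WT, and an asterisk marks an array left out in the second setting. Most rows are coloured in the Jnk2 KO columns and pale in the Jnk1 KO columns, while Mme and Rps3a1 are coloured in both Jnk1-null groups.

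Gdpd3, Abcb1b, Atp11a, Abhd1, BC018473 and Pik3c2g were lower in Jnk1 KO, with WT at the level of Jnk1 KO. Gdpd3, a lysophospholipase D of the glycerophosphodiesterase family, read 3.43, 3.22 and 3.26 in Jnk1 KO and 6.39, 7.06 and 7.96 in Jnk2 KO. WT arrays read 3.33, 3.72 and 3.70, next to Jnk1 KO and far below Jnk2 KO. The difference was -3.83 (SE 0.27, limma adjusted p = 1.31e-05). No fold is given, because the Jnk1 KO and WT values lay below the median of their arrays (4.26 to 4.38) and may not be above background. Abcb1b, one of the mouse genes for the P-glycoprotein efflux pump, read 4.11, 3.73 and 3.82 in Jnk1 KO and 6.73, 6.21 and 7.33 in Jnk2 KO (-2.87, SE 0.34, limma adjusted p = 0.00226). WT read 3.32 to 4.01 and overlapped with Jnk1 KO only. Atp11a, a P4-ATPase that flips phospholipids across the plasma membrane, read 5.58, 5.36 and 5.23 against 7.47, 7.06 and 7.14 (-1.84, SE 0.19, limma adjusted p = 0.000685), with 5.02 to 5.26 in WT. Again the 3 Jnk2 KO arrays stood above all other NEMO-intact arrays.

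Abhd1, an alpha/beta hydrolase, read 5.28, 5.16 and 5.37 in Jnk1 KO and 7.69, 8.33 and 7.25 in Jnk2 KO (-2.49, SE 0.23, limma adjusted p = 0.00015), and 4.98 to 5.74 in WT. BC018473, which the gene table lists by this clone name only, read 2.90, 2.75 and 2.68 against 6.68, 5.34 and 5.49 (-3.06, SE 0.37, limma adjusted p = 0.00245). Its WT values of 2.64 to 2.81 were at the same low level as Jnk1 KO. Pik3c2g, the liver-enriched class II phosphoinositide 3-kinase, was lower by 1.49 (SE 0.18, limma adjusted p = 0.00245) in the same way. These 6 genes kept their call when any single array of the 2 groups was left out. With both arrays that stood apart left out, they lay between -3.48 and -1.74, each called.

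In the double knockouts, arrays that the first comparison does not use, Gdpd3, Abcb1b, Abhd1 and Atp11a differed again between Jnk1-null and Jnk2-null livers. Gdpd3 read 3.54, 3.57 and 3.53 in NEMO/Jnk1 DKO and 7.17, 6.89 and 6.88 in NEMO/Jnk2 DKO (-3.43, SE 0.27, limma adjusted p = 5.31e-05). NEMO/Jnk1 DKO replicates 1 and 2 carry the female pattern and no NEMO/Jnk2 DKO array does. Without the female-pattern arrays, which leaves 1 NEMO/Jnk1 DKO array whose spread is taken from the other groups, Gdpd3 was at -3.45 (SE 0.42, limma adjusted p = 0.0265). For Abcb1b the difference was -3.29 (SE 0.34, limma adjusted p = 0.000792), for Abhd1 -2.17 (SE 0.23, limma adjusted p = 0.000792) and for Atp11a -1.39 (SE 0.19, limma adjusted p = 0.00842). These 3 lost the call without the female-pattern arrays, at -2.78, -2.38 and -1.49 (limma adjusted p = 0.0951, 0.0931 and 0.265), and kept it with a sex term (limma adjusted p from 0.0114 to 0.0266). BC018473 departed from this, with 2.77, 2.66 and 2.76 against 2.61, 2.78 and 4.23, so that only NEMO/Jnk2 DKO replicate 3 rose above the rest (-0.48, SE 0.37, limma adjusted p = 0.999). Whether its difference changed with NEMO did not pass the test (limma adjusted p = 0.199 without the arrays that stood apart). Pik3c2g had non-overlapping double knockouts at 5.54 to 5.80 and 6.47 to 6.65 (-0.94), which passed the test in the 13-array fit (SE 0.14, limma adjusted p = 0.0136) and not with all 15 (SE 0.18, limma adjusted p = 0.0782).

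**Figure D2:**
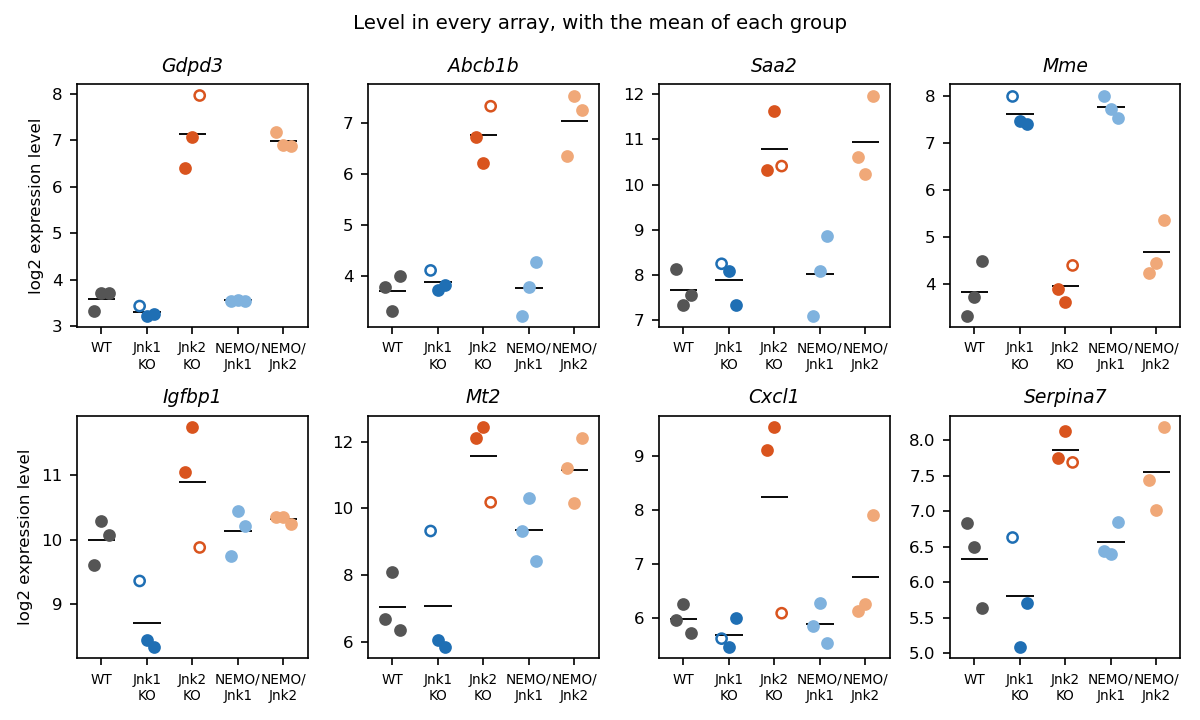
log2 expression level of 8 genes in every array, by group, with black bars at the group means of all 3 arrays; open circles are Jnk1 KO replicate 1 and Jnk2 KO replicate 3. Gdpd3, Abcb1b, Saa2 and Mme separate the Jnk lines with and without NEMO, while Igfbp1 and Cxcl1 are high in Jnk2 KO replicates 1 and 2 and near WT in replicate 3.

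A second group of genes was set apart by Jnk1 KO. Mme, which encodes the membrane peptidase neprilysin, read 7.98, 7.46 and 7.39 in Jnk1 KO and 3.88, 3.61 and 4.39 in Jnk2 KO, and 3.32 to 4.48 in WT. Here the Jnk1 KO arrays alone were high (3.65, SE 0.32, limma adjusted p = 0.000119). Rps3a1, which encodes the small-subunit ribosomal protein S3A, read 8.10, 8.06 and 7.80 against 9.82, 9.71 and 9.72 (-1.77, SE 0.16, limma adjusted p = 0.000119), and 9.32 to 9.63 in WT. Without the 2 arrays Mme was at 3.68 (SE 0.36, limma adjusted p = 0.00034) and Rps3a1 at -1.84 (SE 0.2, limma adjusted p = 0.000646). Both genes repeated in the double knockouts, Mme with 3.07 (SE 0.32, limma adjusted p = 0.000792) and Rps3a1 with -1.45 (SE 0.16, limma adjusted p = 0.000863). Without the female-pattern arrays they were at 2.86 and -1.19 and not called (limma adjusted p = 0.0951 and 0.165), while with a sex term both were called (limma adjusted p = 0.0154 and 0.0175). The acid-sensing channel gene Asic5 followed them without being called as labelled. It read 5.11, 6.34 and 6.23 in Jnk1 KO, 8.31, 8.48 and 7.02 in Jnk2 KO and 7.87 to 8.64 in WT. Without the 2 arrays its difference was -2.11 (SE 0.24, limma adjusted p = 0.00116), and the call held when any 1 of the remaining 4 arrays was left out. In the double knockouts the ranges were 5.02 to 5.25 and 6.46 to 7.2 (-1.69), which was called in the 13-array fit (SE 0.20, limma adjusted p = 0.00131) and not with all 15 (SE 0.38, limma adjusted p = 0.182).

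Sucnr1, the receptor for extracellular succinate, was higher in Jnk1 KO. It read 6.65, 8.18 and 8.20 in Jnk1 KO, 5.56, 5.65 and 4.73 in Jnk2 KO and 6.99 to 7.24 in WT. All Jnk2 KO arrays were below WT, Jnk1 KO replicates 2 and 3 were above it, and Jnk1 KO replicate 1 was below it. The difference of 2.36 (SE 0.41, limma adjusted p = 0.0427) was 2.59 without the 2 arrays (SE 0.33, limma adjusted p = 0.00209). It lost its call without any one of Jnk1 KO replicates 2 and 3 and Jnk2 KO replicates 1, 2 and 3 (limma adjusted p from 0.0593 to 0.205). Sucnr1, Mme, Asic5, Fga and Rps3a1 all lie on chromosome 3, at places 213, 220, 280, 288 and 306 among the 943 measured genes there in the RefSeq order of GRCm38.p6. That chromosome held 4 of the 26 called genes as labelled and 11 of the 119, with 4.75% of all measured genes. Steap4, Abcb1b, Gsap and Abhd1 lie on chromosome 5, the first 3 at places 22, 29 and 52 of 1140, and that chromosome held 4 of the 26 and 8 of the 119 with 5.74% of the measured genes. Neither is the chromosome of a deleted kinase, since Mapk8 lies on 14 and Mapk9 on 11. Chromosome 11, with 7.87% of the measured genes, held 4 of the 26 (Igfbp1, Mapk9, Mmd and BC018473) and 14 of the 119. Chromosome 14, with 3.52%, held 0 as labelled and 7 of the 119.

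The called genes that follow here differed by less, while Saa2, Steap4, Fga, Cebpd and Igfbp1 are described further below. Lower in Jnk1 KO were Apobec1, the cytidine deaminase that edits Apob mRNA (-1.0, SE 0.16, limma adjusted p = 0.0292), Cltb, a clathrin light chain (-0.93, SE 0.16, limma adjusted p = 0.0406), Chsy3, a chondroitin sulfate synthase (-0.80, SE 0.14, limma adjusted p = 0.0427), Plce1, phospholipase C epsilon (-0.71, SE 0.12, limma adjusted p = 0.0421), and Tbc1d23, which acts in vesicle capture at the Golgi (-0.53, SE 0.09, limma adjusted p = 0.0453). Each of these 5 lost its call without Jnk1 KO replicate 2 or 3 or Jnk2 KO replicate 1 or 2, and Tbc1d23 also without Jnk1 KO replicate 1. In Cltb the low group was Jnk1 KO, at 7.49 to 7.66 with WT at 7.78 to 8.41, whereas Apobec1, Plce1 and Tbc1d23 were above the WT range in all 3 Jnk2 KO arrays. Higher in Jnk1 KO were the aldo-keto reductase Akr1c19 (1.03), Gsap, the gamma-secretase activating protein (0.92), Fam89a (0.90), Rps23rg1, a retrogene of Rps23 (0.89), Mmd (0.52) and the F-box gene Fbxo36 (0.47). All 6 were below the WT range in every Jnk2 KO array. Limma adjusted p-values ran from 0.015 for Fam89a and Rps23rg1 to 0.0427 for Mmd.

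Genes of the acute phase had lower levels in Jnk1 KO. Of 25 measured members of a list of acute-phase proteins, 3 were called lower as labelled (Saa2, Steap4 and Fga) and 0 higher, and 22 had a difference below 0. Their median was -0.496, beside 0.007 over all genes tested. Without the 2 arrays 4 were called lower, with the iron-siderophore binding protein Lcn2 added, all 25 were below 0, and the median was -0.778. Saa2 and Saa1 encode the serum amyloid A proteins that hepatocytes secrete in the acute phase, and lie next to each other in opposite directions on chromosome 7. Their start regions are shown to compare the neighbouring genes: over 250 bases before to 50 bases after the RefSeq start (GRCm38.p6), their sequences are identical at 287 of 301 aligned positions (95.3%). Capitals mark a C/EBP motif, TTGCNNAA read on both strands, which 9.7% of the 15614 windows of measured genes hold. It was in 4 of 13 windows of the genes called lower as labelled, Saa2 included. Of the genes called lower without the 2 arrays, 9 of 74 windows held it (12.2%), near the share over all windows.
Saa2, chr7:46751583-46751882, plus strand: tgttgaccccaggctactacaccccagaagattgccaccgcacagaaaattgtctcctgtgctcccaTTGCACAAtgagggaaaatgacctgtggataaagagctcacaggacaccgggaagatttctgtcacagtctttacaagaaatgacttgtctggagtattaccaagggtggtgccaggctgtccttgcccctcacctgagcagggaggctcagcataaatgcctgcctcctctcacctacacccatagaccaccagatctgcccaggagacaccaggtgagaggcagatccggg
Saa1, chr7:46742931-46743230, minus strand: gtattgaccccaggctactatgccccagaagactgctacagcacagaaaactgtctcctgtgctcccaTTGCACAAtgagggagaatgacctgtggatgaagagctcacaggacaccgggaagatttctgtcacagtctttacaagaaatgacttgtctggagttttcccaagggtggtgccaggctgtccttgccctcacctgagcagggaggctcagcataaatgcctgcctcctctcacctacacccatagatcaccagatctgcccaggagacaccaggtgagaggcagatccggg

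Saa2 read 8.25, 8.08 and 7.34 in Jnk1 KO and 10.33, 11.62 and 10.41 in Jnk2 KO, with 7.34 to 8.14 in WT. The lowest Jnk2 KO array was above every Jnk1 KO and WT array, and the difference was -2.90 (SE 0.50, limma adjusted p = 0.0427), or 7.45-fold. Without the 2 arrays the Saa2 difference was -3.26 (SE 0.61, limma adjusted p = 0.0291). Saa1 had 6.42, 7.26 and 7.11 against 9.25, 10.41 and 8.65 (-2.50, SE 0.56, limma adjusted p = 0.164). Whether the probes tell these related transcripts apart was not tested. The constitutive Saa4 (-1.03, SE 0.38, limma adjusted p = 0.536) and Saa3 (-0.50, SE 0.27, limma adjusted p = 0.78) were not called. In the double knockouts Saa2 ranged from 7.10 to 8.87 in NEMO/Jnk1 DKO and from 10.23 to 11.97 in NEMO/Jnk2 DKO (-2.92, SE 0.50, limma adjusted p = 0.0443). That call was lost with a sex term (-2.68, limma adjusted p = 0.27) and without the female-pattern arrays (-2.07, limma adjusted p = 0.843). The change of the Saa2 difference with NEMO was 0.027 (SE 0.71, limma adjusted p = 1.00). As labelled with NEMO intact, the Saa2 call was lost without Jnk1 KO replicates 2 or 3 or Jnk2 KO replicates 1 or 2 (limma adjusted p from 0.0943 to 0.205). It was also lost with a sex term, with a replicate block and with array weights. Of 17 alternative settings 8 kept it.

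Steap4, a metalloreductase of iron and copper uptake, read 9.66, 9.16 and 8.92 in Jnk1 KO and 10.88, 11.38 and 10.31 in Jnk2 KO (-1.61, SE 0.22, limma adjusted p = 0.00916), with 8.82 to 9.04 in WT. Fga, the fibrinogen alpha chain, read 10.23 to 10.29 in Jnk1 KO and 11.11 to 11.58 in Jnk2 KO (-1.09, SE 0.17, limma adjusted p = 0.0281). WT was at 10.23 to 10.37, so that Jnk1 KO was at the level of WT for Fga. Without the 2 arrays Steap4 was at -2.09 (SE 0.16, limma adjusted p = 4.07e-05) and Fga at -1.2 (SE 0.2, limma adjusted p = 0.0169). The other fibrinogen chains were not called, Fgb at -0.27 (SE 0.09, limma adjusted p = 0.435) and Fgg at -0.36 (SE 0.09, limma adjusted p = 0.195), and haptoglobin, Hp, was at -0.53 (SE 0.15, limma adjusted p = 0.311). Lcn2 read 8.82, 5.70 and 5.92 in Jnk1 KO and 9.62, 9.71 and 9.36 in Jnk2 KO. Its Jnk1 KO replicate 1 was near Jnk2 KO and above the WT range of 5.49 to 6.26, and the difference went from -2.75 (SE 0.80, limma adjusted p = 0.341) to -3.86 without the 2 arrays (SE 0.74, limma adjusted p = 0.0365). That call was lost without any 1 of the 4 remaining arrays (limma adjusted p from 0.104 to 0.173). The call of Steap4 as labelled was lost without Jnk1 KO replicate 2 or Jnk2 KO replicate 1 (limma adjusted p = 0.0636 and 0.0591), and that of Fga without Jnk1 KO replicates 2 or 3 or Jnk2 KO replicates 1 or 2 (limma adjusted p from 0.103 to 0.139). Hamp, which encodes the iron hormone hepcidin, and its copy Hamp2 were among the 3 members whose sign turned, with Saal1, and Hamp went from 0.32 as labelled to -0.45 without the 2 arrays. Neither value of Hamp was called (limma adjusted p = 0.966 and 0.834).

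**Figure D3:**
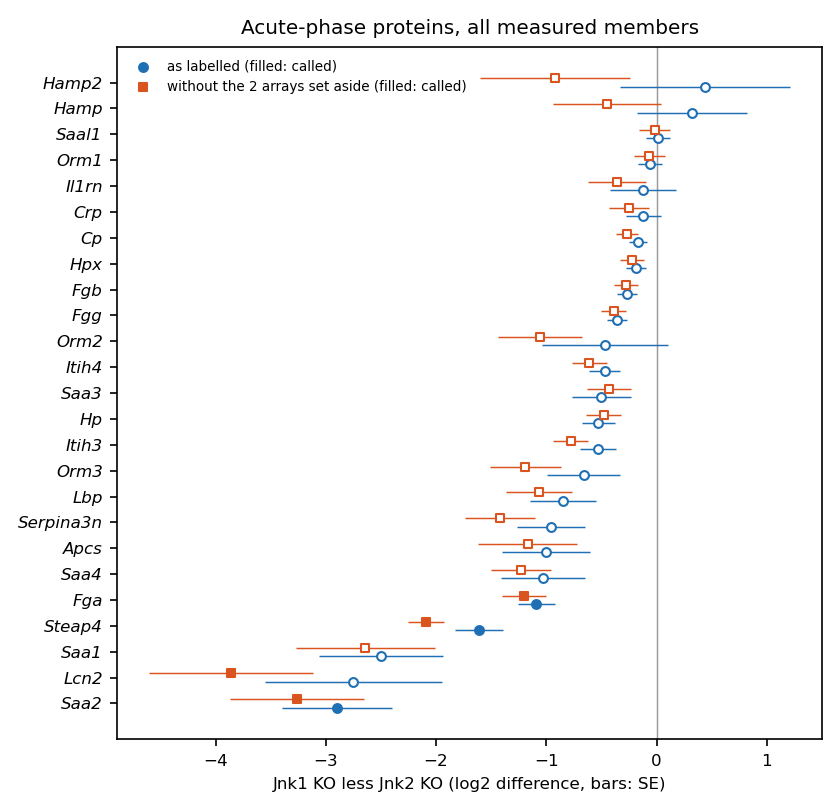
Difference of Jnk1 KO less Jnk2 KO (log2, with SE bars) for the 25 measured members of the acute-phase list, as labelled (blue circles) and without the 2 arrays that stood apart (orange squares); filled symbols were called. As labelled 22 members lie left of 0 and without the 2 arrays all 25 do, with Saa2, Lcn2 and Saa1 farthest out.

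The list for IL-6, gp130 and STAT3 signalling, the pathway that drives many acute-phase genes, had 1 of 22 measured members called lower as labelled, Cebpd. Without the 2 arrays 2 were called lower, Stat3 and Tnfrsf1a, the latter a TNF receptor gene that the list also holds. The medians were -0.311 and -0.403. Cebpd, the C/EBP-delta transcription factor, read 3.70 to 4.12 in Jnk1 KO and 4.89 to 5.32 in Jnk2 KO (-1.19, SE 0.20, limma adjusted p = 0.0406). Its call was lost without any single one of the 6 arrays, at limma adjusted p-values of 0.0525 to 0.176. Stat3 itself was at -0.76 as labelled (SE 0.17, limma adjusted p = 0.135) and at -1.02 without the 2 arrays (SE 0.16, limma adjusted p = 0.0122). Its Jnk2 KO values were 9.46, 9.51 and 8.94, all above the Jnk1 KO range of 8.37 to 8.69. The TNF receptor gene Tnfrsf1a was at -0.58 (SE 0.14, limma adjusted p = 0.216) and -0.84 (SE 0.13, limma adjusted p = 0.0104). Neutrophil markers, whose cells also make Lcn2, had a mean level over 15 genes of 3.25 to 3.38 in Jnk1 KO, 3.44 to 3.55 in Jnk2 KO and 3.21 to 3.40 in WT, and 0 were called in either setting. These mean levels lay below the array medians of 4.26 to 4.38 and may not be above background. The part of neutrophils in these differences was not tested. In whole liver, fewer cells of a type and less RNA per cell cannot be told apart.

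Igfbp1, a hepatocyte-secreted binding protein of insulin-like growth factors that insulin represses, differed in the single knockouts and not in the double knockouts. It read 9.36, 8.44 and 8.33 in Jnk1 KO and 11.05, 11.75 and 9.88 in Jnk2 KO. WT read 9.61, 10.29 and 10.07, so that all Jnk1 KO arrays were below WT, Jnk2 KO replicates 1 and 2 above it and replicate 3 within it. The difference was -2.19 as labelled (SE 0.38, limma adjusted p = 0.0443) and -3.02 without the 2 arrays (SE 0.26, limma adjusted p = 9.61e-05). As labelled the call was lost without Jnk1 KO replicates 2 or 3 or Jnk2 KO replicates 1 or 2 (limma adjusted p from 0.168 to 0.206). In the double knockouts the ranges overlapped, at 9.75 to 10.45 and 10.25 to 10.35 (-0.18, SE 0.38, limma adjusted p = 0.999). The change of the difference with NEMO was -2.84 and passed the test without the 2 arrays (limma adjusted p = 0.019). With all arrays 0 genes passed that test (548 at an unadjusted p under 0.05). The Igfbp1 promoter is the textbook site of insulin repression through FOXO factors, and the window from RefSeq is shown with matches to CAAAANA, on both strands, in capitals.
Igfbp1, chr11:7197537-7197836, plus strand: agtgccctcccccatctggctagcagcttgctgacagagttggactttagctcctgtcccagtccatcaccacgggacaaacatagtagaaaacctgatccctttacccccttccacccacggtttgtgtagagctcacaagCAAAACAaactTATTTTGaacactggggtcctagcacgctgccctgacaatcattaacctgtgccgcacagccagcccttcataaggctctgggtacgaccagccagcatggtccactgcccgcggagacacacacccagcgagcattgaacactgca

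This motif is common, with 15.8% of the 15614 windows holding it, and it was in 3 of 13 windows of the genes called lower as labelled. Without the 2 arrays it was in 10 of 74 windows of the genes called lower (13.5%). Few other genes of the fasting and glucose list were called. Of 24 measured members 1 was called lower as labelled (Igfbp1) and 2 without the 2 arrays, with Pfkfb3, which makes the glycolytic activator fructose 2,6-bisphosphate, at -1.46 (SE 0.29, limma adjusted p = 0.0466). As labelled Pfkfb3 was at -1.13 (SE 0.31, limma adjusted p = 0.277). The list's medians were -0.1 and -0.111. Igfbp1 was also the single called member of the 16 genes of the IGF axis in both settings.

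Metallothioneins gave the largest differences once the 2 arrays were left out. Mt1 and Mt2, the small cysteine-rich zinc and copper binders of liver, lie next to each other on chromosome 8. Mt2 read 9.32, 6.04 and 5.83 in Jnk1 KO and 12.12, 12.44 and 10.18 in Jnk2 KO, with 6.34 to 8.10 in WT. Mt1 read 9.69, 7.29 and 7.0 in Jnk1 KO and 11.78, 12.37 and 9.95 in Jnk2 KO, with 6.98 to 8.88 in WT. For both genes Jnk1 KO replicate 1 was above the WT range and close to Jnk2 KO replicate 3, which was the lowest of its group. As labelled the differences were -4.52 for Mt2 (SE 0.88, limma adjusted p = 0.0899) and -3.37 for Mt1 (SE 0.78, limma adjusted p = 0.179). Without the 2 arrays they were -6.35 (SE 0.65, limma adjusted p = 0.000488) and -4.93 (SE 0.64, limma adjusted p = 0.0025), or 81.3-fold and 30.5-fold. Both calls held when any 1 of the 4 remaining arrays was left out. In the double knockouts Mt2 ranged from 8.42 to 10.31 and from 10.16 to 12.10 (-1.81, SE 0.88, limma adjusted p = 0.956).

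The windows of these genes hold several copies of the metal response element core, TGCACNC or TGCGCNC on either strand, through which the zinc sensor MTF-1 acts. The letters are shown in capitals because both genes carry more than 1 copy, 4 for Mt2 and 3 for Mt1, and one or more copies are in 30.7% of all 15614 windows. Over their whole length, capitals included, the windows of Mt2 and Mt1 have 49.4% identity in their alignment.
Mt2, chr8:94172368-94172667, plus strand: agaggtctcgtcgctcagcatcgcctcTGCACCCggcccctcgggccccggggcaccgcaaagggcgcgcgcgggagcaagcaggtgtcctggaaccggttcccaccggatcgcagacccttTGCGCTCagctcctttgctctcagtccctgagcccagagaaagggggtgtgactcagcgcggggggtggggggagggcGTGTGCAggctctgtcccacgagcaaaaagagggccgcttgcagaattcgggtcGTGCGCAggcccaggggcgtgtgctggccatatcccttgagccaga
Mt1, chr8:94178839-94179138, plus strand: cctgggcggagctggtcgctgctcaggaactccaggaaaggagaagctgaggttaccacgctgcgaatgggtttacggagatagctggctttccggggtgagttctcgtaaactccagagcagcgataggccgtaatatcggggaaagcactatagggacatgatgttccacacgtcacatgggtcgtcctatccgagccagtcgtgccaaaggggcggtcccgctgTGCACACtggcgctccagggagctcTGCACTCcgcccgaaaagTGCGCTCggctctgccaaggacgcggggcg

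Among 24 measured genes of zinc and iron handling, 0 were called as labelled and 3 without the 2 arrays, all lower in Jnk1 KO. Besides Mt1 and Mt2 this was Slc39a14, the zinc and iron importer ZIP14 that acute-phase signals raise, at -1.72 (SE 0.21, limma adjusted p = 0.00177), with -1.28 as labelled (SE 0.26, limma adjusted p = 0.102). Its Jnk2 KO arrays read 10.04, 10.36 and 9.07, all above the 8.33 to 8.67 of Jnk1 KO. The brain metallothionein Mt3 was at 0.056 (SE 0.15, limma adjusted p = 0.985). The list's median of 0.064 as labelled and -0.043 without the 2 arrays was near that of all genes, 0.007 and 0.003.

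Other genes joined the call without the 2 arrays, and for most of them Jnk2 KO replicate 3 was nearer to Jnk1 KO than replicates 1 and 2 were. Leaving that array out is part of how these genes came to be called, so its place follows in part from that choice. Cxcl1, the neutrophil chemokine, read 9.10 and 9.53 in Jnk2 KO replicates 1 and 2 and 6.09 in replicate 3, against 5.46 to 6.00 in Jnk1 KO and 5.72 to 6.26 in WT. Its difference was -2.55 as labelled (SE 0.68, limma adjusted p = 0.27) and -3.59 without the 2 arrays (SE 0.45, limma adjusted p = 0.00223). It was the single called gene among 20 chemokines in that setting. Slc25a25, the mitochondrial carrier of ATP-Mg and phosphate, read 8.69, 7.90 and 7.75 in Jnk1 KO and 9.83, 10.08 and 9.05 in Jnk2 KO, with 9.26 to 9.63 in WT (-2.13, SE 0.30, limma adjusted p = 0.00514, without the 2 arrays). Nrg4, a growth factor of the ErbB4 receptor, read 5.77, 5.08 and 4.97 against 6.36, 7.86 and 5.86 (-2.08, SE 0.42, limma adjusted p = 0.0466). Serpina7, thyroxine-binding globulin, differed in this respect, since its Jnk2 KO arrays at 7.75, 8.13 and 7.69 were alike and Jnk1 KO read 6.63, 5.08 and 5.70 (-2.56, SE 0.39, limma adjusted p = 0.00963). The calls of Slc25a25, Nrg4 and Serpina7 were lost without Jnk2 KO replicate 2, at -2.01, -1.33 and -2.37 (limma adjusted p = 0.0753, 0.253 and 0.116). Slc25a25 also lost it without Jnk1 KO replicate 3, Serpina7 without Jnk1 KO replicate 2, and Nrg4 without either.

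Genes higher in Jnk1 KO without the 2 arrays were of several functions. Sugct, the succinyl-CoA:glutarate CoA-transferase, read 6.78, 7.74 and 7.56 in Jnk1 KO and 5.28, 4.84 and 6.38 in Jnk2 KO (2.59, SE 0.39, limma adjusted p = 0.00963), with 7.50 to 7.78 in WT. Slc15a5, of the peptide transporter family, read 4.30, 6.19 and 5.86 against 4.18, 4.14 and 3.98 (1.86, SE 0.30, limma adjusted p = 0.0122). Slc13a2, a citrate and dicarboxylate transporter, read 3.54, 5.36 and 4.67 against 3.83, 3.59 and 3.48 (1.30, SE 0.21, limma adjusted p = 0.0137). In both transporters Jnk1 KO replicate 1 was as low as the Jnk2 KO and double knockout arrays, which ran from 3.98 to 4.51 for Slc15a5 and from 3.33 to 3.83 for Slc13a2. The linker histone gene H1f2 read 7.34, 7.51 and 7.2 against 6.26, 6.04 and 7.35 (1.21, SE 0.14, limma adjusted p = 0.00116). Grb7, a receptor tyrosine kinase adaptor, read 8.18, 8.85 and 8.81 against 7.85, 7.68 and 8.05 (1.07, SE 0.15, limma adjusted p = 0.004). The Hedgehog co-receptor gene Gas1 read 6.43, 6.76 and 6.77 against 5.85, 5.67 and 6.40 (1.00, SE 0.18, limma adjusted p = 0.0221). As in H1f2, the Jnk2 KO array that stood apart lay near the Jnk1 KO values for Gas1.

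Rad51d, of homologous recombination, read 6.39, 7.10 and 6.64 against 5.91, 6.00 and 6.52 (0.92, SE 0.15, limma adjusted p = 0.0167). Cited2, a transcriptional co-regulator that binds CBP and p300, read 7.54, 8.66 and 7.98 against 7.30, 7.52 and 7.54 (0.91, SE 0.18, limma adjusted p = 0.0466), and its difference was 0.57 (limma adjusted p = 0.151) without Jnk1 KO replicate 2. Oxsm, the mitochondrial 3-oxoacyl-ACP synthase, read 7.34, 7.69 and 7.75 against 7.0, 6.67 and 6.79 (0.89, SE 0.16, limma adjusted p = 0.022). Oxsm was the one of these 3 whose groups stayed apart in the double knockouts, at 7.26 to 7.6 and 6.54 to 6.96. Of the 17 genes named for this setting, Asic5, Cxcl1, H1f2, Mt1 and Mt2 kept their call when any 1 of the 4 arrays was left out, and the other 12 did not (limma adjusted p from 0.0519 to 0.253 where lost). The count of 119 was 75 and 66 without Jnk1 KO replicates 2 and 3, and 147 and 38 without Jnk2 KO replicates 1 and 2.

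How far the 2 arrays left out share the difference was read from them directly, as Jnk1 KO replicate 1 less Jnk2 KO replicate 3. Their difference had the same sign in 94 of the 119 genes (73 of 92 lower and 21 of 27 higher), against 50.1% of all genes, with a median size of 0.29 beside 0.98 in the other arrays. Among the 92 genes lower in Jnk1 KO, replicates 1 and 2 of Jnk2 KO were both above the WT range in 90. Jnk2 KO replicate 3 was above it in 62 and within or below it in 30, and it was below both other Jnk2 KO arrays in 69. These genes were called on Jnk2 KO replicates 1 and 2 without replicate 3, which favours high values in replicates 1 and 2. The median size of 0.98 likewise comes from the arrays that picked the genes. The same counts against WT over all genes were not made.

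The same Jnk1-null against Jnk2-null contrast with NEMO deleted in hepatocytes called 21 genes (0.105%), 9 higher (0.0451%) and 12 lower (0.0602%) in NEMO/Jnk1 DKO. Of the 26 genes called with NEMO intact, 10 were among them, which is 38.5% of the 26 and 47.6% of the 21. With the female pattern in 2 of 3 NEMO/Jnk1 DKO arrays and in no NEMO/Jnk2 DKO array, sex and genotype partly coincide here. Without the female-pattern arrays 3 genes were called, 2 of them among the 26 (Gdpd3 and Mapk9), and 25 of the 26 differed in the same direction. With a sex term 15 were called, 8 of them among the 26. With all arrays the 10 were Abcb1b, Abhd1, Atp11a, Cltb, Gdpd3, Mapk9, Mme, Rps3a1, Saa2 and Tbc1d23. All 26 differed in the same direction in the double knockouts, against 57.1% of all genes, and 19 had non-overlapping double knockout arrays in that direction, which over all genes held for 7.12% (higher) and 5.51% (lower). Their median size was 1.34 with NEMO intact and 0.7 without NEMO. For 9 of the 26 the difference in the double knockouts was under 0.5 times that with NEMO intact. Of the 119 genes 103 had the same direction (55.5% of all genes) and 12 were called (10.1% of the 119 and 57.1% of the 21), with Ift57 and Tmc5 added. In the 13-array fit that gave the 119, the double knockouts had 64 calls (0.321%), of which 20 were among the 119 (16.8% of the 119 and 31.2% of the 64), Asic5, Sugct, Sucnr1, Steap4 and Pik3c2g included. For 94 of the 119 the difference was under 0.5 times as large, and the median size went from 0.98 to 0.22. Both the 26 and the 119 were picked for a large difference with NEMO intact. Such a choice alone makes differences smaller in arrays that were not used for it. The change of the difference with NEMO was called for 0 genes as labelled and for 2 without the 2 arrays (0.01%, and 1313 at an unadjusted p under 0.05), Igfbp1 and Cyp2c54. Igfbp1 was thus the 1 gene of the 119 whose smaller difference in the double knockouts passed a test.

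**Figure D4:**
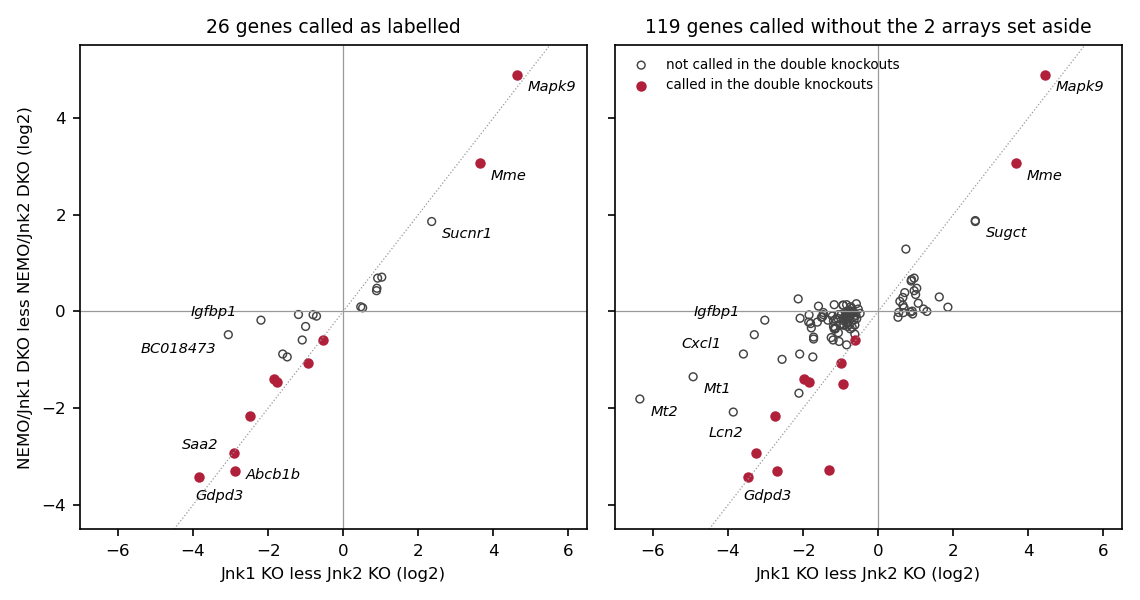
Difference between the Jnk lines with NEMO intact (x axis, log2, Jnk1 KO less Jnk2 KO) and with NEMO deleted in hepatocytes (y axis, log2, NEMO/Jnk1 DKO less NEMO/Jnk2 DKO), for the 26 genes called as labelled (left) and the 119 called without the 2 arrays (right); the dotted line marks equal differences and filled points were called in the double knockouts in the fit to all 15 arrays. Mapk9, Mme and Gdpd3 lie near the line, whereas Mt2, Mt1, Cxcl1 and Igfbp1 lie nearer to the horizontal axis. The genes were picked on the x axis difference, which favours larger values there.

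In the JNK kinase cascade itself, 1 of 27 measured genes was called in either setting, which was Mapk9, and the median was -0.009 as labelled and 0.002 without the 2 arrays. Mapk10, which encodes the neuronal JNK3, stayed at 2.43 to 2.64 in all 6 arrays (-0.015, SE 0.13, limma adjusted p = 0.994). Map2k4, the gene of the upstream kinase MKK4, was at -0.32 (SE 0.12, limma adjusted p = 0.564), and Map3k5, that of ASK1, at -0.83 (SE 0.25, limma adjusted p = 0.371). Larger differences that were not called lay in stress-induced genes of the cascade. Gadd45g, whose product binds MAP3K4, read 6.39, 4.94 and 7.38 in Jnk1 KO and 9.72, 9.71 and 8.67 in Jnk2 KO (-3.13, SE 0.67, limma adjusted p = 0.132). Dusp1, the phosphatase that inactivates JNK and p38, read 8.09, 8.47 and 8.11 against 9.64, 10.21 and 9.51 (-1.56, SE 0.31, limma adjusted p = 0.0935). In both genes the groups did not overlap, while WT, at 6.6 to 8.00 and 7.64 to 8.89, overlapped with Jnk1 KO and not with Jnk2 KO. AP-1 and immediate early genes, the transcriptional output of the cascade, were below 0 in 24 of 28 as labelled and in 25 without the 2 arrays, with medians of -0.115 and -0.28. As labelled 0 were called, and without the 2 arrays 1 was, the antiproliferative Btg2 (-1.59, SE 0.24, limma adjusted p = 0.00984). With all arrays Btg2 was at -1.18 (SE 0.35, limma adjusted p = 0.363), and Jnk1 KO replicate 1, at 6.96, lay within the Jnk2 KO range of 6.73 to 7.31.

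Few genes of the inflammatory lists were called. NF-kB components and targets had 0 of 19 called as labelled and 1 without the 2 arrays, the adhesion molecule Vcam1 (-1.48, SE 0.26, limma adjusted p = 0.0203). Interferon-stimulated genes had 0 and 1 of 24, the antiviral GTPase gene Mx2 (-1.04, SE 0.19, limma adjusted p = 0.0295), with medians of -0.086 and -0.293. Among 17 cell death genes 1 was called without the 2 arrays, Bid, the BH3-only protein that links death receptors to mitochondria, which was higher in Jnk1 KO (0.88, SE 0.17, limma adjusted p = 0.0344). In the fatty acid synthesis and storage list the lipid droplet gene Plin4 was called in that setting (-0.94, SE 0.16, limma adjusted p = 0.0168), 1 of 28. As labelled Vcam1 was at -0.87 (SE 0.44, limma adjusted p = 0.75) and Mx2 at -0.86 (SE 0.17, limma adjusted p = 0.0935). Bid was then at 0.66 (SE 0.15, limma adjusted p = 0.175) and Plin4 at -0.71 (SE 0.20, limma adjusted p = 0.291). For Vcam1 Jnk1 KO replicate 1, at 7.81, lay above the Jnk2 KO arrays, at 6.93 to 7.47. Whether the calls named from these lists without the 2 arrays hold when a further array is left out was not tried.

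Most members of the bile acid and drug metabolism lists had higher levels in Jnk1 KO without being called. Bile acid synthesis and transport genes were above 0 in 22 of 25 as labelled and in 20 without the 2 arrays, with medians of 0.185 and 0.19 and 0 called. Cyp7a1, which catalyses the first step from cholesterol to bile acids, read 10.20, 10.30 and 10.14 in Jnk1 KO and 8.62, 7.81 and 9.62 in Jnk2 KO, while WT ran from 8.57 to 10.43 across both (1.53, SE 0.47, limma adjusted p = 0.383). Drug metabolism genes were above 0 in 16 of 22 as labelled, with medians of 0.288 and 0.287, and Abcb1b was the only called member and went the other way. No member was called in the cholesterol synthesis, fatty acid oxidation, circadian clock, amino acid, NRF2 or unfolded protein lists in either setting. As labelled the clock gene Per3 was at 0.58 (SE 0.24, limma adjusted p = 0.621), Sqle, an enzyme of cholesterol synthesis, at -0.58 (SE 0.15, limma adjusted p = 0.256), and the stress-response gene Osgin1 at 1.32 (SE 0.42, limma adjusted p = 0.412). Without the 2 arrays Osgin1 was at 1.63 (SE 0.39, limma adjusted p = 0.0998).

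Macrophage, stellate and cell cycle levels were raised in both arrays that stood apart, and the female pattern marked Jnk1 KO replicate 1 alone of the single knockouts. Mean neutrophil marker levels set neither array apart, but they lay below the array medians and may not be above background. As labelled 0 members were called in the lists of hepatocyte, cholangiocyte, macrophage, neutrophil, lymphocyte, endothelial, stellate and erythroid markers. Without the 2 arrays only Cd9 of the macrophage list was, at -0.84 (SE 0.14, limma adjusted p = 0.0167). With all arrays Cd9 was at -0.67 (SE 0.33, limma adjusted p = 0.74), and Jnk1 KO replicate 1, at 8.58, lay within the Jnk2 KO range of 7.95 to 8.92. Cell cycle genes had a median of 0.294 as labelled, with 23 of 26 above 0, and of -0.104 without the 2 arrays. Their mean level was 6.51 in Jnk1 KO replicate 1 and 5.49 in Jnk2 KO replicate 3, with 4.49 to 4.94 in the remaining 7 arrays with intact NEMO. The median of the female-biased liver genes was 0.621 as labelled and -0.112 without the 2 arrays, with a mean level of 8.08 in Jnk1 KO replicate 1 and 4.57 to 5.16 in the other 5 single knockout arrays. None of the cell cycle or sex-biased genes was called in either setting.

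**Figure D5:**
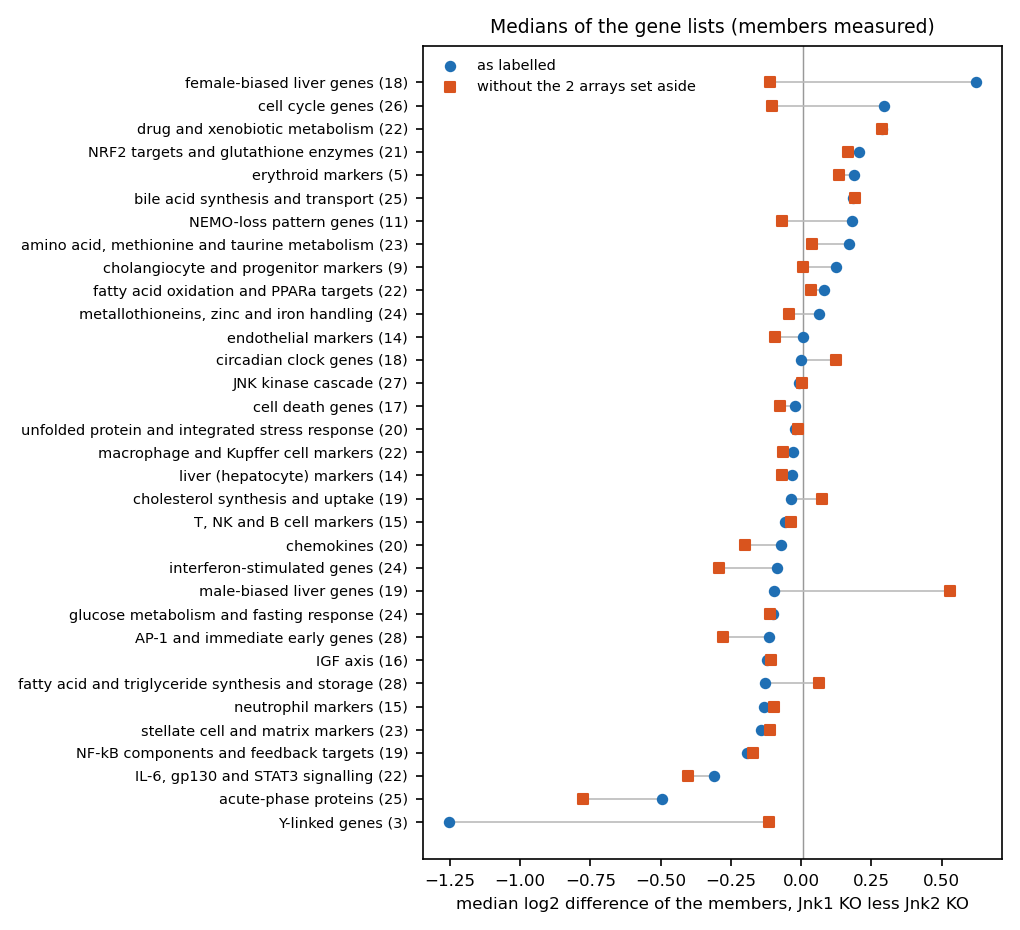
Median difference of the measured members of each of the 33 gene lists (log2, Jnk1 KO less Jnk2 KO), as labelled (blue circles) and without the 2 arrays that stood apart (orange squares); numbers in brackets are the members measured and the grey line is the median of all genes as labelled. The acute-phase list lies at -0.496 and -0.778, while the medians of the female-biased and cell cycle lists change sign between the settings.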

How the data were processed

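Whole-liver RNA of 15 mice (5 groups of 3) was hybridised to Affymetrix whole-transcript arrays. The deposited values are log2 expression levels that the authors made with RMA (per the submitters' processing notes, version not given in the sources used here); that the base is 2 was read from their range. Array medians of 4.26 to 4.38 and the number of arrays limit the precision. Of 35556 probe sets, 21789 carried 1 gene symbol in the platform annotation, 1621 several and 12146 were unlisted; 999 genes had several probe sets and were read from the brightest on average, leaving 19938 genes. limma 3.58.1 (R 4.3.3; lmFit and eBayes, 1 mean per group, all 15 arrays or 13) tested each difference, with Benjamini-Hochberg adjustment over all genes. Tested on simulated data for this comparison as labelled, with 19938 genes, 44% of genes changed by 0.5 (log2) and 84% of those changed by 1 were called. The simulated arrays had independent normal spread in each gene, no array that stood apart and no female pattern. These shares may therefore not hold for the real arrays.

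The members, gene lists and the arrays set aside were chosen with earlier results of these data known. Named were Mapk8, Mapk9, Ikbkg, every gene called as labelled, the 15 called genes with the largest change in each direction without the 2 arrays whose arrays did not overlap, and per list up to 4 called members (or the 2 with the lowest p); members of the JNK cascade, acute-phase and metallothionein lists could be named whatever their value, and provisional gene models and small RNA genes were not named. Of 677 list symbols 608 were measured. Promoter windows came from RefSeq (GRCm38.p6). Alternatives changed the arrays fitted, normalization, filter, replicate block, sex, weights and probe set rule.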

Additional observations from a re-analysis of the deposited data

Results flagged for a closer look

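Under a test of whether the Jnk1-null less Jnk2-null difference changes with NEMO, 2 genes passed without Jnk1 KO replicate 1 and Jnk2 KO replicate 3. The change is the difference with NEMO intact less that in the double knockouts. For Igfbp1 it was -2.84 (log2, limma adjusted p = 0.019), the differences being -3.02 with NEMO intact and -0.18 in the double knockouts. Cyp2c54 is a cytochrome P450 of the Cyp2c cluster, whose members share sequence that probes may not tell apart. Its change was -1.49 (SE 0.20, limma adjusted p = 0.0403), the differences being 0.27 with NEMO intact and 1.77 in the double knockouts. Cyp2c54 read 9.87 to 10.20 in Jnk1 KO, 9.69, 9.83 and 8.37 in Jnk2 KO, and 7.86 to 8.35 in NEMO/Jnk2 DKO, so that the array left out of Jnk2 KO lay next to the NEMO/Jnk2 DKO arrays. With all 15 arrays neither gene passed (limma adjusted p = 1.00 for both).

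Signal also lay in probe sets that the gene comparison does not use. Of 12146 probe sets not listed in the platform annotation, 6 were called as labelled (0.0494%; 2 higher and 4 lower in Jnk1 KO, 799 at an unadjusted p under 0.05). Of 1621 probe sets that carry several gene symbols, 8 were called, all lower in Jnk1 KO (0.494%; 116 at an unadjusted p under 0.05). Without the 2 arrays 7 unlisted probe sets were called (0.0576%), all lower, and 27 with several symbols (1.67%), 3 higher and 24 lower.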

How the results depend on the processing

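With 26 genes called as labelled, the count was 4 when the fit held only the 6 arrays compared, 57 without the arrays with the female pattern and 119 without the 2 arrays that stood apart. It ran from 10 to 104 with 1 array left out. With 119 genes called without the 2 arrays, it was 29 when the fit held only the 4 arrays compared, 52 with array weights, and 38 to 147 with 1 more array left out. The 21 genes of the double knockouts were 3 without the female-pattern arrays, 64 without the 2 arrays that stood apart, and 9 to 20 with 1 array left out. Changes with NEMO went from 0 to 2 without the 2 arrays, and were 0 to 2 with 1 array left out. The cause of these differences was not tested. Deviations from the group mean of same-numbered Jnk1 KO and Jnk2 KO arrays had r = -0.29, 0.304 and -0.395. The 2 arrays that stood apart enter these deviations, so the values cannot show whether the numbers pair the mice. With the replicate block 18 genes were called, 17 of them among the 26, and 98 without the 2 arrays. With a sex term 21 of the 26 genes kept their call as labelled, and Cebpd, Cltb, Fbxo36, Mmd and Saa2 lost it. Over all 17 alternatives as labelled, Atp11a, Mapk9, Mme and Rps3a1 kept their call.

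Differences that were not called changed sign as follows. Without the 2 arrays, Acot3 went from 0.54 to -0.14, Hamp from 0.32 to -0.45 and Prom1 from 0.77 to -0.10. Without the female-pattern arrays, Acot3 was at -0.099 and Prom1 at -0.18, and with a sex term Prom1 was at -0.052. With array weights Hamp was at -0.071. With 1 array left out, the differences ran from -0.099 to 0.96 for Acot3, -0.22 to 0.63 for Hamp, -0.098 to 0.40 for Ikbkg, -0.041 to 0.37 for Klf1, -0.072 to 0.048 for Mapk10 (with 0.009 and 0.018), -0.13 to 1.64 for Moxd1, -0.056 to 0.12 for Mt3, -1.33 to 0.001 for Orm2 and -0.18 to 1.31 for Prom1.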
